A study of Danio rerio with 55 samples.

Results

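In MZezh2 mutant embryos, RNA of 107 genes that wild-type embryos had in quantity at 24 hours post fertilization (hpf), but hardly before, was already present at 0 hpf and 3.3 hpf. They were chosen from 32266 annotated zebrafish genes by their level in CPM, a gene's counts as a share of all gene counts of a library on a common scale. Each had a wild-type mean under 1 CPM at 0 and 3.3 hpf, a mutant mean of at least 5 CPM at both, and a wild-type mean of at least 1 CPM at 24 hpf, with every mutant library above every wild-type library at 0 and 3.3 hpf. The set would have been capped at 200 genes, which was not needed.

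The mutant embryos (MZezh2-/-) lacked functional Ezh2 from both parents. They came from crosses of fish whose germ cells, introduced by transplantation, carried a nonsense allele of ezh2 with an early stop codon in the catalytic SET domain, while the body of the parents was mostly wild type. Wild-type embryos came from crosses of transplanted siblings with a wild-type germ line, so both genotypes share the transplantation and the TU/TLF mixed background. RNA was sequenced from pools of whole embryos in 6, 7 and 7 mutant libraries at 0, 3.3 and 24 hpf, against 5, 5 and 6 wild-type libraries, which the study treats as biological replicates.

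Ezh2 is the enzyme of Polycomb Repressive Complex 2 that trimethylates lysine 27 of histone H3, a mark of repressed developmental genes. A zebrafish egg is stocked with RNA by the mother during oogenesis, and the embryo runs on this maternal store at 0 hpf. Its own genome becomes active around the mid-blastula stage, close to 3.3 hpf, and at 24 hpf the body plan is laid down and organs are forming. RNA of the embryo itself at 0 hpf is therefore maternal, and many patterning genes, such as most Hox and Pax genes, normally appear later in restricted territories.

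The level of ezh2 itself split the mutant libraries. It was 2.83 to 4.58 CPM in mutant replicates 1, 2 and 4 at 0 hpf and 271 to 368 CPM in replicates 3, 5 and 6, against 194 to 409 CPM in wild type. At 3.3 hpf it was 3.75 to 6.28 CPM in mutant replicates 1, 2, 4 and 5 and 195 to 254 CPM in replicates 3, 6 and 7, against 228 to 497 CPM in wild type. At 24 hpf it was 37.0 to 47.5 CPM in mutant replicates 1 to 4 and 106 to 126 CPM in replicates 5 to 7, against 106 to 218 CPM in wild type. The paper describes both the protein and the mRNA of Ezh2 as eliminated in these mutants, and the higher ezh2 levels are at odds with that for the mRNA. The allele is a nonsense allele, so the amount of its RNA alone does not settle the genotype. Why the mutant libraries differ was not tested. The summed level, the number of genes chosen and the 24 hpf calls are given with and without the mutant libraries over 50 CPM of ezh2. All other values pool both kinds of mutant library. The libraries held 2736282 to 24041447 counts, and a count of 0 in a wild-type library at 0 hpf still allows 0.125 to 0.555 CPM (3 counts, counting error only).

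All values that chose the genes are given as a description, with no test. Together the 107 genes made up 976, 1001, 1124, 1133, 1390 and 1582 CPM in the 6 mutant libraries at 0 hpf, against 45.9, 46.0, 50.6, 52.4 and 67.9 CPM in the 5 wild-type libraries. The means were 1201 ± 237 CPM (SD, n = 6) in mutants and 52.6 ± 9.04 CPM (SD, n = 5) in wild type, a ratio of 22.8. At 3.3 hpf the sum was 1190.3 ± 230.3 CPM (SD, n = 7) in mutants and 53.7 ± 5.03 CPM (SD, n = 5) in wild type, a ratio of 22.2. The lowest mutant library, replicate 3 at both stages, stood at 976 CPM at 0 hpf and 917 CPM at 3.3 hpf, far above the highest wild-type library. Since CPM is a share of each library, a higher share of these RNAs and a lower share of the others cannot be told apart.

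Without the 3 mutant libraries over 50 CPM of ezh2, the mutant mean of the sum was 1365 CPM at 0 hpf and 1287 CPM at 3.3 hpf. The 3 libraries left out averaged 1037 CPM at 0 hpf and 1062 CPM at 3.3 hpf. That both kinds of mutant library exceed wild type was fixed by the rule, which set every mutant library above every wild-type library. Applying the rule to the mutant libraries at or under 50 CPM of ezh2 gave 142 genes, which included 104 of the 107. Applying it to those over 50 CPM gave 94 genes, 81 of them among the 107.

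**Figure D1:**
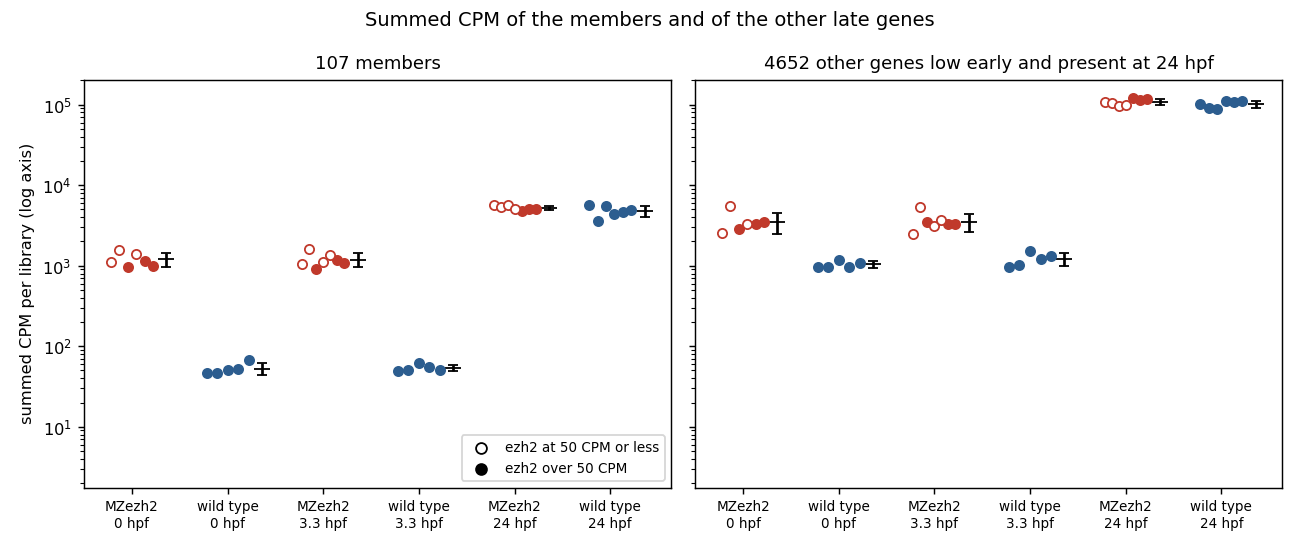
Summed CPM (log axis) per library of the 107 genes (left) and of the other 4652 genes under 1 CPM in wild type at 0 and 3.3 hpf and at least 1 CPM at 24 hpf (right), by genotype and stage. Each point is a library, open where ezh2 was at 50 CPM or less, and bars give the mean and SD. All mutant sums of the 107 genes at 0 hpf lie between 976 and 1582 CPM, against 45.9 to 67.9 CPM in wild type.

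The 107 genes were 2.25% of the 4759 genes that wild type kept under 1 CPM early and had at 1 CPM or more at 24 hpf. Of these 4759 genes, 143 reached a mutant mean of 5 CPM at 0 hpf, 144 at 3.3 hpf and 129 at both, and in 22 of the 129 some mutant and wild-type libraries overlapped. Over all genes with a count, the lowest mutant library exceeded the highest wild-type library in 4.88% of 27383 genes at 0 hpf and 4.15% of 28640 genes at 3.3 hpf. Among the 4759 late genes it did so in 588 at 0 hpf and 528 at 3.3 hpf. These are the backgrounds for this criterion, which was part of the rule. The other 4652 late genes summed to 3506 ± 1054 CPM (SD, n = 6) in mutants and 1037 ± 96.5 CPM (SD, n = 5) in wild type at 0 hpf, a ratio of 3.38. The 107 genes thus held 22.2 to 30.8% of the late-gene RNA in 0 hpf mutant libraries, against 4.11 to 5.85% in wild type.

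The same measure was also read, with no test, in libraries left out of a choice, which are not independent of those that stayed in. When replicate number 1, 2, 3, 4 or 5 was left out in both genotypes, the rule chose 116, 100, 120, 108 and 118 genes. In the left-out mutant library, 115, 99, 119, 107 and 115 of these genes were higher than in the left-out wild-type library at both 0 and 3.3 hpf, which is 97.5 to 99.2%. Among the remaining late genes the same was true of 37.8 to 62.7%. The median of the chosen genes was 5.00 to 12.5 CPM in the left-out mutant libraries at 0 hpf, against 0.336 to 0.523 CPM in the left-out wild-type libraries. With number 4 left out, 3.3 hpf mutant replicate 5, the library most like 0 hpf mutant replicate 4, stayed in. With number 5 left out, 3.3 hpf mutant replicate 6, the library most like 0 hpf mutant replicate 5, stayed in. Genes chosen for separation in all other libraries of the same stages are likely to be higher in the left-out one too. The high shares therefore lend the choice no support. They describe genes, which are not replicates.

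By CPM, which is not corrected for gene length, the highest of the 107 in 0 hpf mutants was abca1b, a paralogue of the ABCA1 transporter that exports cholesterol from cells. It stood at 37.0 (lowest), 48.6 (median) and 80.3 CPM (highest) in mutants at 0 hpf, against 0.403, 0.333, 0.555, 0.0714 and 1.34 CPM in wild type. At 3.3 hpf the mutant libraries ran from 32.5 over a median of 52.2 to 101 CPM, against 0.595, 1.15, 0.901, 0.369 and 1.56 CPM in wild type. The genotypes did not overlap at either stage, as the rule demands, but did at 24 hpf, with 408, 416 and 548 CPM (lowest, median, highest) in mutants and 221, 370.1 and 459 CPM in wild type.

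PAX5, a paired-box factor of the midbrain-hindbrain boundary and, in mammals, of B cells, came next. Mutants had 26.6 (lowest), 36.3 (median) and 46.0 CPM (highest) at 0 hpf, against 0.403, 0.458, 0.370, 0.4995 and 2.09 CPM in wild type. At 3.3 hpf mutants had 26.9, 37.6 and 47.4 CPM, against 0.321, 0.289, 0.361, 0.246 and 0.721 CPM in wild type. Its early mutant level exceeded its later one, for at 24 hpf it was 1.04, 3.69 and 5.93 CPM in mutants and 1.83, 4.97 and 9.52 CPM in wild type. The early mutant libraries thus all lay above the highest 24 hpf wild-type library, while the genotypes overlapped at 24 hpf.

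GALNT18, an enzyme of the family that starts O-linked glycosylation, had 23.7, 30.9 and 46.5 CPM in 0 hpf mutants (lowest, median, highest), against 0.985, 0.499, 0.555, 0.428 and 0.672 CPM in wild type. The other genes among the 10 highest were MXD4, a MAX-binding repressor, PRKCH, a protein kinase C, btr02, a member of the bloodthirsty-related TRIM family, JARID2, GCNT4, a mucin-type glycosylation enzyme, LMO1, a LIM-only transcription cofactor, and dchs2, a large cadherin of the Dachsous family. Their mutant means at 0 hpf lay between 21.0 CPM for dchs2 and 24.4 CPM for MXD4, and their wild-type means between 0.265 and 0.857 CPM. For dchs2 the lowest mutant library, at 8.95 CPM, was above all 6 wild-type libraries at 24 hpf, which reached 1.90 CPM. JARID2 encodes a partner of Polycomb Repressive Complex 2, and had 9.74, 16.2 and 45.3 CPM in 0 hpf mutants, against 1.03, 1.21, 0.370, 0.214 and 1.195 CPM in wild type. Its 24 hpf libraries overlapped, at 15.5 to 38.0 CPM in mutants and 16.4 to 31.7 CPM in wild type.

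**Figure D2:**
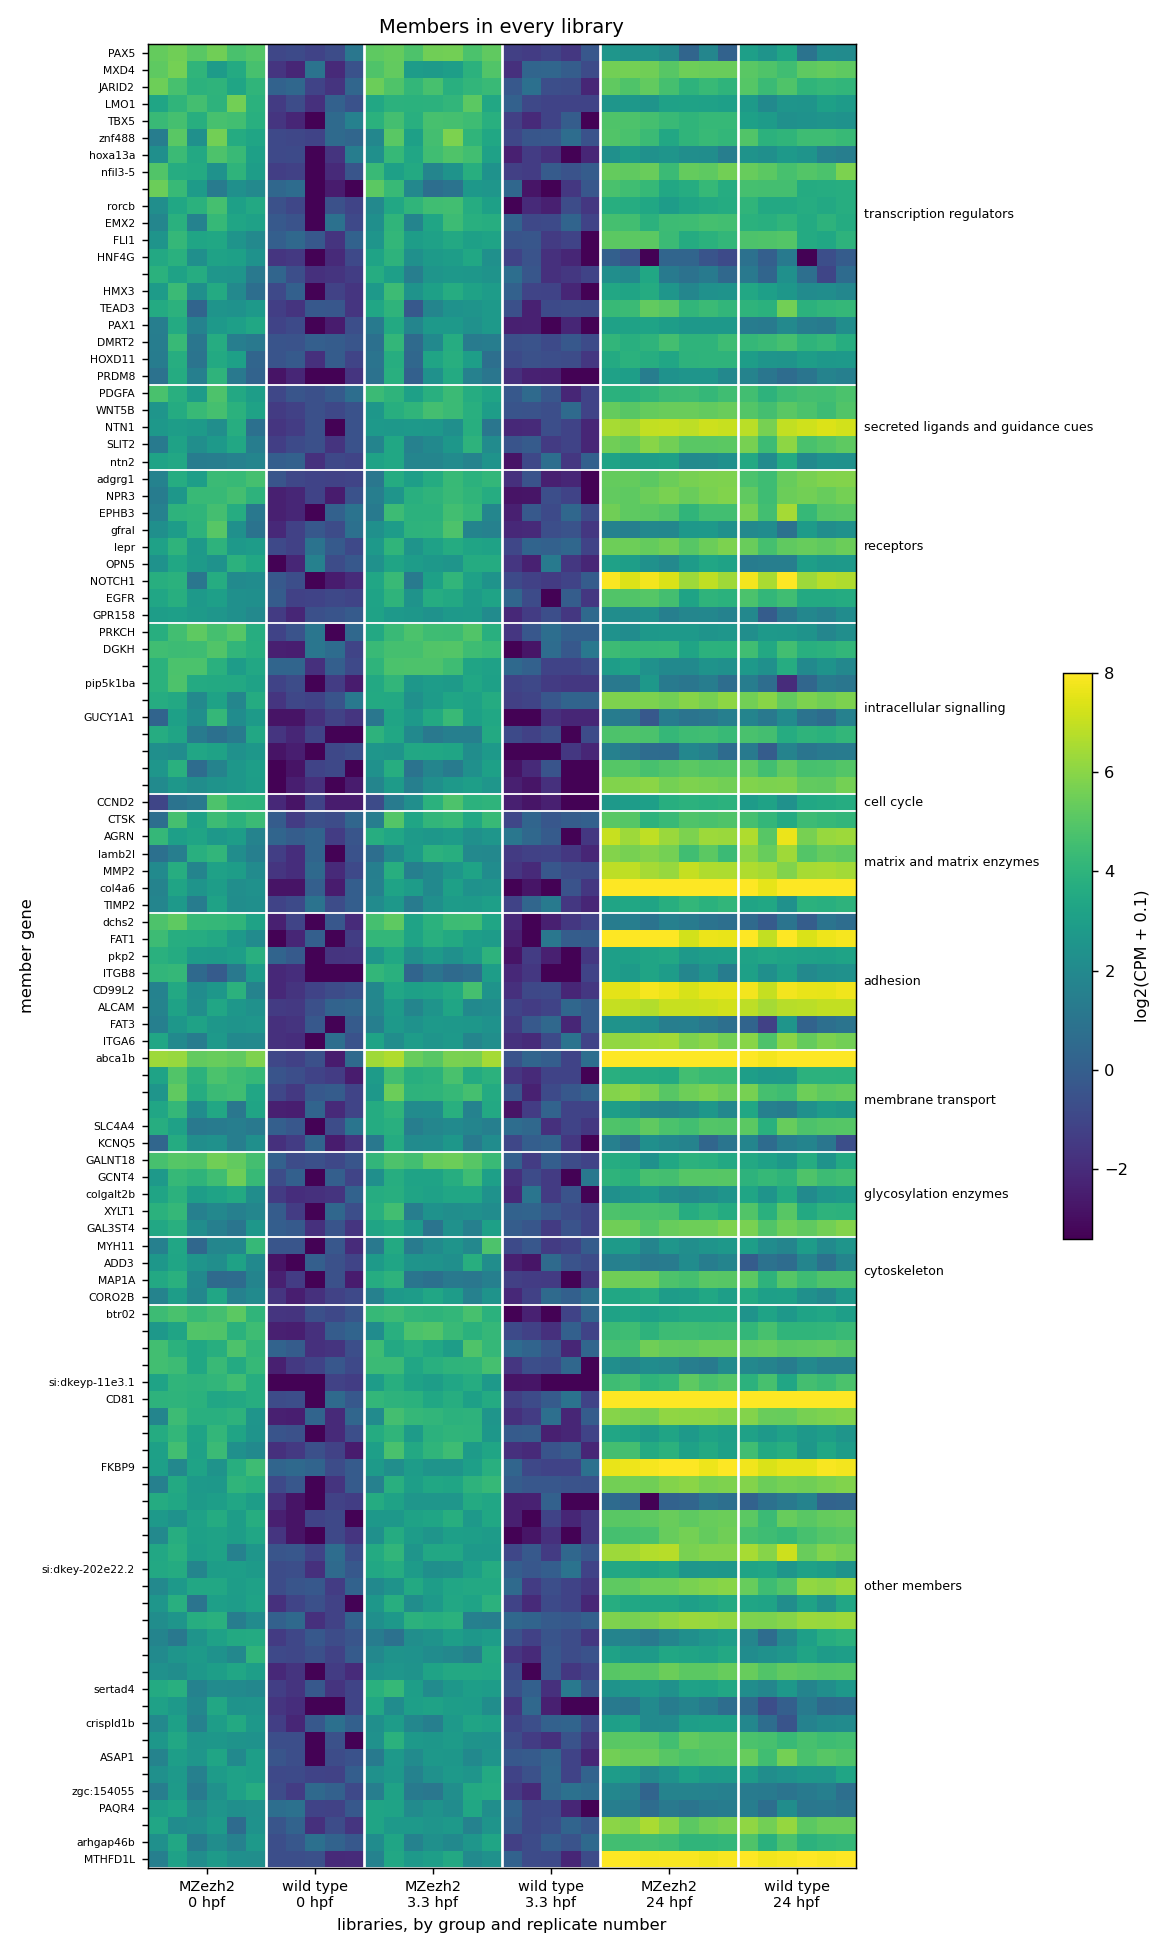
Level of each of the 107 genes (rows, grouped by role, with names for those described in the text) in each RNA library (columns, mutant left of wild type at each stage, in order of replicate number), as log2(CPM + 0.1). At 0 and 3.3 hpf every mutant library is above every wild-type library in every row, as the rule requires, whereas at 24 hpf most rows look alike in both genotypes.

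Roles were assigned by hand to 74 of the 107 genes from what is known of each gene or its vertebrate relatives, after the values had been seen, and members named only within a role were picked in the same way. Roles were not counted in genes outside the 107, so the counts per role have no background share beside them. Among the assigned roles, transcription regulators were the most numerous, with 20 genes. Their summed level in 0 hpf mutants was 185 to 406 CPM per library (median 269 CPM), against 5.92 to 16.8 CPM (median 10.7 CPM) in wild type. Beside PAX5, MXD4, LMO1 and JARID2 they included limb, heart and fin factors (TBX5, HOXD11, hoxa13a), EMX2 of the forebrain, PAX1 of the sclerotome and pharyngeal pouches, HMX3 of the inner ear, DMRT2 of the somites, FLI1 of the endothelium, TEAD3, a partner of the Hippo pathway, the nuclear receptors HNF4G and rorcb, the bZIP factor nfil3-5 and the zinc finger genes PRDM8 and znf488.

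TBX5, the T-box factor needed for heart and pectoral fin development, had 13.1, 21.5 and 25.7 CPM in 0 hpf mutants (lowest, median, highest), against 0.224, 0.125, 0, 1.36 and 2.99 CPM in wild type. At 3.3 hpf it had 13.5, 22.2 and 25.4 CPM in mutants, against 0.321, 0.144, 0.361, 0.861 and 0 CPM in wild type. All mutant libraries at both stages lay within 13.1 to 25.7 CPM, above the 4.92 to 8.26 CPM of the wild-type libraries at 24 hpf. PAX1 had 2.66, 7.32 and 11.7 CPM in 0 hpf mutants, against 0.358, 0.458, 0, 0.0714 and 0.523 CPM in wild type.

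The Hox genes hoxa13a and HOXD11 belong to the 5′ end of their clusters, which patterns the posterior body and the distal fin or limb. For hoxa13a the 0 hpf mutant libraries had 4.72, 15.5 and 28.5 CPM (lowest, median, highest), against 0.448, 0.458, 0, 0.214 and 2.61 CPM in wild type. HOXD11 was less even, at 8.46, 11.5 and 12.9 CPM in mutant replicates 5, 4 and 2 and at 1.16, 1.88 and 2.49 CPM in replicates 6, 3 and 1, against 0.627, 0.790, 0.185, 0.856 and 0.373 CPM in wild type. Its lowest mutant library was thus close to the highest wild-type one. In the list of 47 Hox genes, 37 were low early and present at 24 hpf in wild type, and 2 of these 37 were members. Of all 4759 late genes, 2.25% were.

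Among other fixed lists of transcription factors, members were PAX5 and PAX1 among 10 late genes of 15 PAX genes, and TBX5 among 15 late genes of 32 T-box genes. The T-box list as a whole was not late, with sums of 716 to 792 CPM in wild type at 0 hpf and 410 to 578 CPM at 24 hpf. In 0 hpf mutants it summed to 673 to 851 CPM, with overlap. None of the 10 late genes of the SOX list was a member. Beside the 2.25% of all late genes, lists this small with 0 or 1 members cannot be told from late genes at large. EMX2, a homeobox factor of the dorsal forebrain, had 3.09, 9.20 and 18.6 CPM in 0 hpf mutants (lowest, median, highest), against 0.762, 0.624, 0, 1.71 and 0.448 CPM in wild type.

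Secreted ligands and guidance cues numbered 5, namely WNT5B, PDGFA, NTN1, ntn2 and SLIT2. Their sum at 0 hpf was 24.0 to 66.5 CPM per mutant library (median 51.0 CPM), against 1.86 to 3.73 CPM (median 2.403 CPM) in wild type. WNT5B, a Wnt ligand of the non-canonical branch that acts in convergent extension, had 5.75, 13.5 and 25.0 CPM in 0 hpf mutants, against 0.269, 0.333, 0.555, 0.428 and 0.598 CPM in wild type. The netrin NTN1 and the repellent SLIT2 guide axons, and had mutant means of 6.69 and 5.93 CPM at 0 hpf, against 0.333 and 0.427 CPM in wild type. The axon guidance list held 4 members, these and ntn2 and EPHB3, among 27 late genes, beside 2.25% of all late genes. Of 32 late Wnt pathway genes 1 was a member. None of the 28, 14, 9 and 14 late genes of the BMP and TGF-beta, FGF, Hedgehog and retinoic acid lists was. At a share of 2.25%, lists of this size with 0 or 1 members cannot be told from late genes at large.

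Receptors were 9, and summed to 58.3 to 144 CPM (median 92.3 CPM) in 0 hpf mutant libraries, against 2.45 to 7.21 CPM (median 4.35 CPM) in wild type. NOTCH1, a receptor for Delta and Jagged ligands, had 1.99, 8.39 and 14.6 CPM in 0 hpf mutants (lowest, median, highest), against 0.762, 0.541, 0, 0.0714 and 0.149 CPM in wild type. It was the sole member among 18 late Notch pathway genes, beside 2.25% of all late genes. A second NOTCH1 gene, not a member, was at 113 CPM in mutants and 95.0 CPM in wild type at 0 hpf. The other receptors were the growth factor receptor EGFR, the ephrin receptor EPHB3, the leptin receptor lepr, the natriuretic peptide clearance receptor NPR3, the GDNF family receptor relative gfral, the G protein-coupled receptors adgrg1 and GPR158 and the opsin OPN5, with mutant means of 6.21 to 14.6 CPM at 0 hpf. Intracellular signalling genes numbered 10, led by PRKCH and the diacylglycerol kinase DGKH, with 94.7 to 153 CPM in mutant libraries, against 2.51 to 5.73 CPM in wild type.

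CCND2, a D-type cyclin that drives cells into S phase, varied most between mutant libraries. At 0 hpf it was at 0.386, 1.81 and 2.21 CPM in mutant replicates 1, 2 and 3 and at 28.5, 15.9 and 15.7 CPM in replicates 4, 5 and 6, against 0.134, 0.0416, 0.370, 0.0714 and 0.0747 CPM in wild type. Replicate 1 was thus just above the highest wild-type library. At 3.3 hpf the mutant libraries ran from 0.468 to 28.3 CPM. A second CCND2 gene, not a member, was at 35.2 CPM in mutants and 20.6 CPM in wild type at 0 hpf.

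Genes of the extracellular matrix and its enzymes numbered 6 and those of adhesion 8. The matrix group held col4a6 and lamb2l of the basement membrane, the synaptic organiser AGRN, the proteases MMP2 and CTSK and the inhibitor TIMP2, with mutant means of 5.12 to 15.2 CPM at 0 hpf, against 0.396 to 0.821 CPM in wild type. The adhesion group held the integrins ITGB8 and ITGA6, the large cadherins FAT1, FAT3 and dchs2, ALCAM, pkp2 and CD99L2, with mutant means of 5.14 to 21.0 CPM, against 0.0602 to 0.668 CPM in wild type. For col4a6, a collagen IV chain, mutants had 3.18, 5.26 and 9.35 CPM at 0 hpf, against 0.0448, 0.0416, 0.924, 0.0714 and 0.896 CPM in wild type. Its level at 24 hpf was far higher in both genotypes, at 314 to 408 CPM in mutants and 191 to 369 CPM in wild type.

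The remaining genes with a role were 6 of membrane transport, 5 glycosylation enzymes and 4 of the cytoskeleton. The transport genes, among them abca1b, the bicarbonate cotransporter SLC4A4 and the potassium channel KCNQ5, had mutant means of 5.06 to 54.8 CPM at 0 hpf, against 0.360 to 0.818 CPM in wild type. The glycosylation enzymes GALNT18, GCNT4, XYLT1, GAL3ST4 and colgalt2b had 6.56 to 32.6 CPM in mutants, against 0.376 to 0.628 CPM in wild type. The cytoskeleton genes MYH11, MAP1A, ADD3 and CORO2B had 5.24 to 6.65 CPM in mutants, against 0.205 to 0.440 CPM in wild type. The 33 genes without an assigned role had 5.38 to 23.5 CPM in mutants, against 0.131 to 0.985 CPM in wild type, and 11 of them exceeded their 24 hpf wild-type mean.

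Members just inside and outside the thresholds differed little. Low mutant means at 0 hpf inside the rule were 5.06, 5.12 and 5.14 CPM (KCNQ5, TIMP2, ITGA6), and the nearest outside were 4.97, 4.88 and 4.88 CPM (CBFA2T3, col4a5, vsnl1b). At 3.3 hpf they were 5.01 and 5.07 CPM (ASAP1, KCNQ5) inside and 4.90, 4.75 and 4.58 CPM (a second FAT1 gene, GUCY1B1, DYRK4) outside. High wild-type means inside at 0 hpf were 0.985, 0.949 and 0.945 CPM (FKBP9, PAQR4, arhgap46b), beside 1.01, 1.12 and 1.13 CPM outside (zbtb16b, cdh6, slc26a10). At 3.3 hpf they were 0.951 and 0.949 CPM (zgc:154055, si:dkey-202e22.2), beside 1.01, 1.01 and 1.02 CPM (npsn, MGST1, RNF130). Low wild-type means at 24 hpf were 1.06 and 1.38 CPM inside (HNF4G, dchs2) and 0.893, 0.868 and 0.756 CPM outside (GPR4, MEGF11, CBLN4). Symbols come from a table that often gives the name of the human relative, and 28 of the 107 genes share theirs with another zebrafish gene. Of those 29 other genes, 13 had a wild-type mean of at least 5 CPM at 0 hpf, so that a member can be the late copy of a pair with a maternal copy. For JARID2 the second gene was at 45.4 CPM in mutants and 34.7 CPM in wild type at 0 hpf, with overlapping libraries. The second genes of GALNT18, PRKCH and PAX1 were at 50.5, 71.7 and 17.3 CPM in mutants at 0 hpf. In wild type they were at 31.1, 75.2 and 4.82 CPM. Other second genes were low in both genotypes, such as that of NTN1 (0.543 CPM, wild type 0.129 CPM). How near-identical copies shared reads was not tested.

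The mutant levels of the 107 genes were alike at 0 and 3.3 hpf. The mean at 3.3 hpf over that at 0 hpf had a median of 1.01 and ran from 0.529 to 1.46, with 56 genes above 1 and 105 of 107 between 0.667 and 1.5. For none of them did all mutant libraries at 3.3 hpf lie on one side of all mutant libraries at 0 hpf. That comparison does not match libraries across stages, so it can miss a change shared by matched libraries. Across the 107 genes, log2 mutant means at both stages had a Pearson r of 0.937, a description over genes that share libraries and the same floor of 5 CPM.

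The lowest ratios were those of GCNT4 (0.529), si:dkeyp-11e3.1 (0.605), pip5k1ba (0.675) and nfil3-5 (0.687). The highest were those of CD99L2 (1.46), sertad4 (1.39), GUCY1A1 (1.34), MTHFD1L (1.28) and EGFR (1.27). For GCNT4 mutants had 4.73, 9.22 and 21.8 CPM at 3.3 hpf (lowest, median, highest), and 6.53, 19.2 and 44.6 CPM at 0 hpf, so the stages overlapped.

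**Figure D3:**
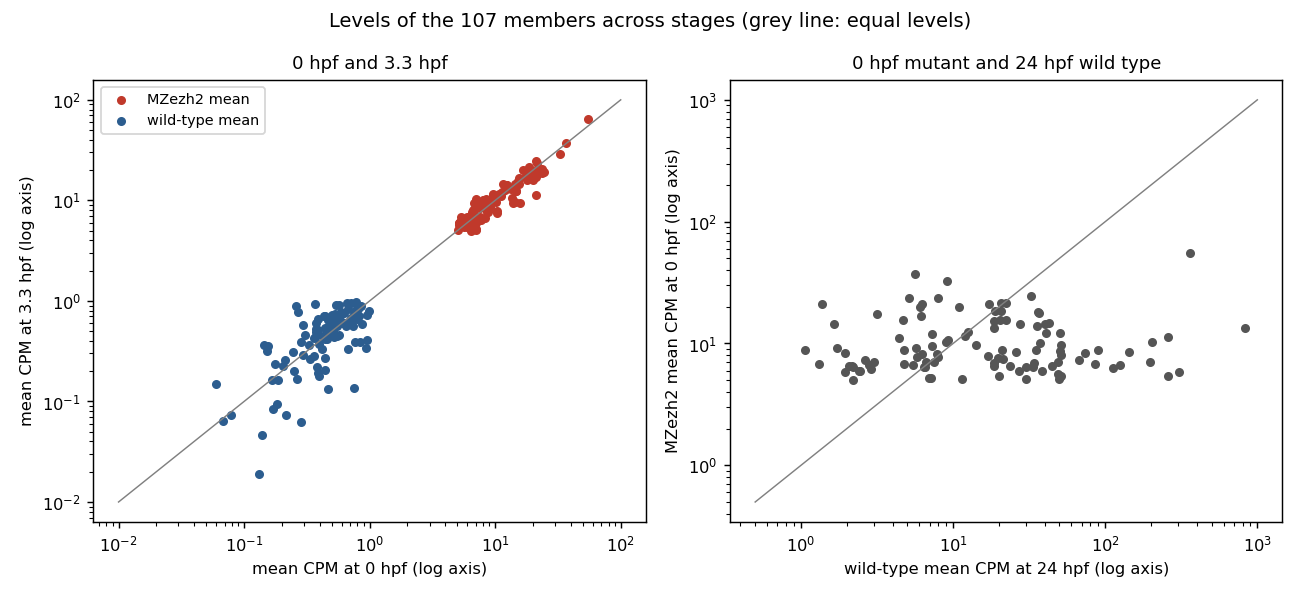
Left, mean CPM at 3.3 hpf against 0 hpf (log axes) for each of the 107 genes in mutants (red) and wild type (blue), with the line of equal levels. Right, mutant mean CPM at 0 hpf against wild-type mean CPM at 24 hpf (log axes). Mutant points follow the line on the left (r of 0.937 on log2 values, 107 genes), and the points on the right do not (r of 0.041).

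Mutant libraries of 0 and 3.3 hpf deviated from their stage mean in matching ways. Over the 107 genes, mutant replicates 1, 2, 3, 4, 5 and 6 at 0 hpf were most like replicates 1, 2, 3, 5, 6 and 7 at 3.3 hpf, with Pearson r of the log2 deviations of 0.960, 0.937, 0.749, 0.917, 0.827 and 0.855. The next best r for each was 0.288, 0.257, 0.400, 0.763, 0.174 and -0.035. Each of the 6 matches joined libraries on the same side of 50 CPM of ezh2. The same matches were found over 11993 other genes with mutant means of at least 5 CPM at both stages, with r of 0.689 to 0.937, so the matching was not particular to the 107 genes. For the choices that left out number 4 or 5, the 3.3 hpf library most like the left-out 0 hpf mutant library therefore stayed in. The labels do not say which libraries of different stages share parents or clutches, and genes are not independent replicates.

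Between libraries of one stage, the highest mutant value of a gene was 1.59 (CD81) to 73.7 times (CCND2) its lowest at 0 hpf, with a median of 4.48, and a median of 3.59 at 3.3 hpf. For 45 genes at 0 hpf and 39 at 3.3 hpf this ratio was over 5, and 36 genes were in both groups. Replicate 2 was the highest mutant library for 42 of the 107 genes at 0 hpf and for 39 at 3.3 hpf.

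Several marker lists of tissues that form later were higher in 0 hpf mutants. The blood list (7 genes) summed to 2.98 to 7.68 CPM in 0 hpf mutant libraries and 0.924 to 2.58 CPM in wild type, so that the genotypes did not overlap, and to 472 to 1789 CPM in 24 hpf mutants. Most of the 0 hpf mutant sum came from its SLC4A1 genes, with means of 2.35 and 0.997 CPM, and from hbae3, with 1.05 CPM. In wild type these were at 0.656, 0.614 and 0.239 CPM. The embryonic globin hbbe3 was at a mean of 0.289 CPM in mutants and 0.0388 CPM in wild type at 0 hpf, and the erythroid factor gata1a at 0.0214 CPM in mutants and 0.00896 CPM in wild type. The skeletal muscle list (10 genes) summed to 10.6 to 18.1 CPM in 0 hpf mutants and 8.15 to 15.7 CPM in wild type. Its genes went both ways. MYOD1 was at 0.481 CPM in mutants and 0.0961 CPM in wild type, but ckma at 1.48 CPM in mutants and 2.31 CPM in wild type. The neuron list (14 genes) summed to 44.4 to 67.1 CPM in mutants and 16.3 to 46.6 CPM in wild type, mostly from tubb5. Its genes also went both ways. The mean of nrxn1a was 7.51 CPM in mutants and 0.902 CPM in wild type, but that of SYT1 was 3.02 CPM in mutants and 3.17 CPM in wild type. The skeletal muscle and neuron sums overlapped between genotypes. A count of 0 in 1 library at 0 hpf still allows up to 0.411 CPM in mutants and 0.555 CPM in wild type. The means of hbbe3 and gata1a and the wild-type means of hbae3 and MYOD1 lie within this, so their differences are loose. None of these lists held a member.

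The neural crest and cardiac lists did not overlap. The neural crest list (24 genes, no member) summed to 120 to 248 CPM in 0 hpf mutants (median 172 CPM) and 53.4 to 97.7 CPM in wild type (median 63.4 CPM), with a higher mutant mean in 22 of the 24 genes. The cardiac list summed to 50.4 to 112 CPM in mutants and 15.97 to 25.6 CPM in wild type. Without its member TBX5 its other 19 genes summed to 30.0 to 86.8 CPM in mutants and 15.8 to 24.3 CPM in wild type, with a higher mutant mean in 18 of the 19. No share of all genes or of late genes stands beside these counts. The summed level of the other 4652 late genes was also higher in 0 hpf mutants, at a ratio of 3.38. The higher sums are therefore not read as particular to neural crest or heart. The part of these tissues' genes in the results was not tested.

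Sums over the egg and follicle lists overlapped between genotypes, but the follicle sum rested on a single gene. The oocyte list (9 genes) summed to 3001 to 4467 CPM in 0 hpf mutants and 4004 to 4592 CPM in wild type. Most of its genes had a lower mean in mutants, such as h1m (1485 CPM, wild type 1682 CPM) and zp3b (222 CPM, wild type 323 CPM). The mean of buc was 1443 CPM in mutants and 1408 CPM in wild type. The follicle cell list (11 genes) summed to 177 to 441 CPM in mutants and 175 to 406 CPM in wild type, nearly all from one of its CYP11A1 genes. Without that gene the other 10 summed to 1.80 to 9.72 CPM in mutants (median 5.43 CPM) and 1.84 to 2.61 CPM in wild type (median 2.04 CPM), with overlap. Of the 10, 9 had a higher mean in mutants, with no share of all genes beside this count. Their means were up to 2.16 CPM in mutants and 0.736 CPM in wild type, both for FOXL2, with gsdf at 1.15 CPM in mutants and 0.336 CPM in wild type. FSHR, the receptor for follicle-stimulating hormone, was at 0.0160 CPM in mutants and 0 in wild type, both under what a count of 0 in a library still allows. The leukocyte list (4 genes) summed to 12.1 to 25.7 CPM in mutants and 2.25 to 4.21 CPM in wild type at 0 hpf, without overlap. Nearly all of it was CORO1A, an actin regulator, at 19.5 CPM in mutants and 2.79 CPM in wild type, while LCP1, ptprc and marco were at up to 0.523 CPM in mutants and 0.260 CPM in wild type. The part of these cells in the results was not tested.

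Reads of the 107 genes lay mostly on the sense strand. Of their stranded counts, 0.341 to 8.78% were antisense in 0 hpf mutant libraries, against 5.93 to 18.7% in wild type, where few counts stand behind the share. Over all genes the antisense share was 1.48 to 10.8% in mutants and 1.53 to 2.32% in wild type. Choosing the genes on the sense-strand counts alone again gave 107 genes, 100 of them the same.

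At 24 hpf the mutant level was not part of the rule and could be tested. At this stage more cells that use a gene and more RNA per cell cannot be told apart. Of 18806 genes tested with edgeR, 42 were higher in mutants (0.223%) and 19 lower (0.101%), counting those with an adjusted p below 0.05 whose log2 fold change reached 1 or -1. Of the 107 genes, 106 were tested, since HNF4G fell under the count filter, and 3 rose (2.83%) and none fell. At an unadjusted p below 0.05 in edgeR, 14 members were higher and 2 lower, which is 15.1% of members beside 7.15% of all genes. This share was not counted for the other late genes. DESeq2 called 4 members higher and 0 lower. Of the late genes that are not members, 15 of 4445 rose (0.337%) and 13 fell.

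The genes that rose were the transcription factors TBX5, PAX1 and HOXD11. TBX5 had 16.7, 20.1 and 29.0 CPM in mutants (lowest, median, highest) and 4.92, 5.39 and 8.26 CPM in wild type, and the groups did not overlap. Its log2 fold change was 1.78 ± 0.20 (SE) with an adjusted p of 0.000384 (edgeR quasi-likelihood test, Benjamini-Hochberg). PAX1 had 6.24, 7.61 and 9.14 CPM in mutants and 2.26, 2.55 and 4.45 CPM in wild type, again without overlap, with a log2 fold change of 1.28 ± 0.21 (SE) and an adjusted p of 0.00819 (edgeR). HOXD11 had 10.0, 14.7 and 15.9 CPM in mutants and 5.55, 6.46 and 7.53 CPM in wild type, with a log2 fold change of 1.00 ± 0.15 (SE) and an adjusted p of 0.0053 (edgeR), at the edge of the minimum fold. Mutant libraries lay wholly above wild type for these 3 members and for 0.649% of all genes.

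**Figure D4:**
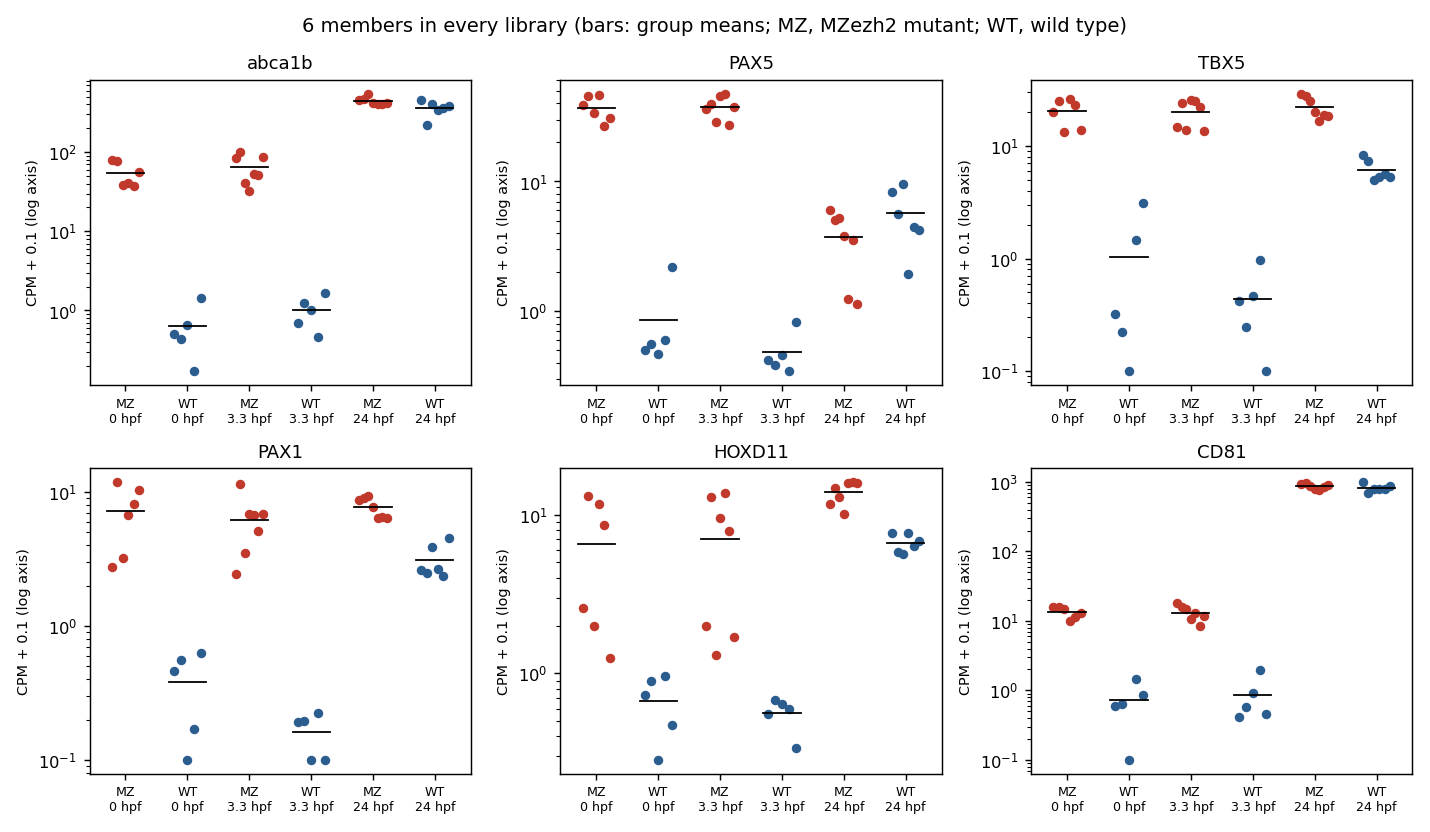
CPM + 0.1 (log axis) of 6 of the genes in every library, mutant left of wild type at each stage, with bars at the group means. At 24 hpf TBX5 (16.7 to 29.0 CPM in mutants, 4.92 to 8.26 CPM in wild type), PAX1 and HOXD11 stay apart between genotypes, and abca1b, PAX5 and CD81 overlap.

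Of these calls, that of HOXD11 alone depended on single libraries. TBX5 and PAX1 were called each time 1 of the 13 libraries was left out, and also without the 3 mutant libraries over 50 CPM of ezh2, where HOXD11 had a log2 fold change of 0.84 and an adjusted p of 0.118 (edgeR). HOXD11 lost its call without mutant replicate 2, 5, 6 or 7 or wild-type replicate 3, 5 or 6, where its log2 fold change of 0.96 to 1.00 was just under the minimum at adjusted p of 0.0128 to 0.0228 (edgeR). Its call also ended in DESeq2, with a log2 fold change of 0.988, and with a term for libraries with many multimapping reads, with one of 0.994 (edgeR). Without mutant replicate 3, PRDM8 was called as well, with an adjusted p of 0.0393 (edgeR). When the libraries of all 3 stages shared one estimate of spread, none of the 3 was called, with adjusted p of 0.184 for TBX5 and 0.452 for PAX1 (edgeR).

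Most of the 107 genes were near wild-type level by 24 hpf. The median log2 fold change was 0.091 over the 106 genes and -0.013 over all genes tested, and 70 of the 106 (66.0%) were above 0, against 47.5% of all genes. The median was 0.051 for the other late genes, whose share above 0 was not counted, so part of the shift may be common to late genes. WNT5B had 33.2, 40.0 and 42.5 CPM in mutants and 21.0, 28.2 and 33.3 CPM in wild type, and EMX2 14.98, 23.1 and 25.1 CPM in mutants and 11.9, 14.2 and 16.7 CPM in wild type. Neither passed the test, with log2 fold changes of 0.45 and 0.58 and adjusted p of 0.184 and 0.125 (edgeR), and the libraries of each gene overlapped. Of the fixed lists, 7 of 47 Hox genes, 3 of 13 PAX genes, 1 of 27 T-box genes and 3 of 141 other homeobox genes tested rose at 24 hpf, and 0, 0, 0 and 1 fell. Of the Polycomb list 3 of 19 rose, of the cyclin D and CDK inhibitor list 1 of 8, and neither list had a gene that fell. The retinoic acid list went mostly the other way, with 1 of 30 that rose and 4 that fell. The cardiac list had 1 of 19 that rose, TBX5, and 1 that fell, and the BMP and TGF-beta list 0 of 64 that rose and 1 that fell. The other lists had no call in either direction. Of all genes tested, 0.223% rose and 0.101% fell. No list was tested as a set, and nothing is read from lists with a single call.

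**Figure D5:**
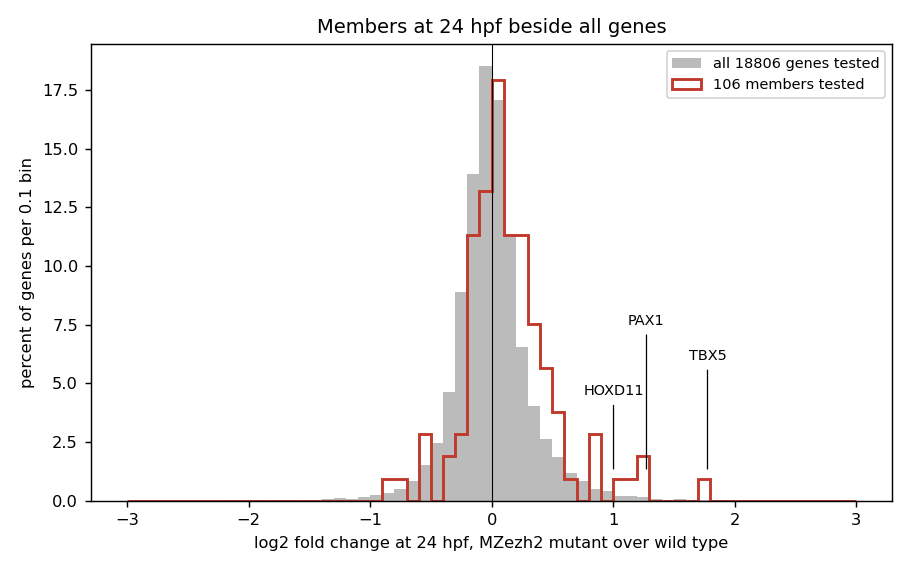
Distribution of the log2 fold change at 24 hpf, mutant over wild type, in bins of 0.1, for the 106 members tested (red outline) and all 18806 genes tested (grey), each as percent of its genes, with values over 3 in size drawn in the outermost bins. The members centre at 0.091 and all genes at -0.013, and TBX5, PAX1 and HOXD11 lie at 1.00 or above.

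The level of a gene in 0 hpf mutants showed little relation to its level in 24 hpf wild-type embryos. Across the 107 genes, log2 mutant means at 0 hpf and log2 wild-type means at 24 hpf had a Pearson r of 0.041, a description over genes. For 42 genes the 0 hpf mutant mean was above the 24 hpf wild-type mean, and for 14 every 0 hpf mutant library was above every 24 hpf wild-type library. For 35 genes every 0 hpf mutant library was below. CD81, a tetraspanin of the cell surface, shows the last kind, with 9.99, 13.9 and 15.9 CPM in 0 hpf mutants (lowest, median, highest) and 757, 866 and 952 CPM in 24 hpf mutants, against 701, 804 and 988 CPM in 24 hpf wild type. All 5 ligands and guidance cues and all 6 matrix genes had a lower mean in 0 hpf mutants than in 24 hpf wild type. A higher one was found in 9 of 20 transcription regulators and 6 of 10 intracellular signalling genes, beside 42 of all 107. These groups are small and were made by hand, so no difference between roles is read from them. Within mutants, 37 genes had a lower mean at 24 hpf than at 0 hpf and 70 a higher one. These comparisons between stages set shares of very different RNA pools side by side.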

How the data were processed

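RNA-seq of pools of whole zebrafish embryos (6, 7 and 7 MZezh2 mutant and 5, 5 and 6 wild-type libraries at 0, 3.3 and 24 hpf) was used. The deposited values are raw counts per gene, which the authors made with STAR (version 2.5.2b in the submitters' notes) on GRCz10 with Ensembl annotation, from rRNA-depleted RNA. The paper's methods state that part of the 24 hpf libraries came from another kit, and the strand columns did not tell them apart. The unstranded column gave CPM over genes (entries that name no gene, for unmapped reads, multimapping reads and reads outside genes, stayed out and held 4.8 to 75.2%, 1.64 to 27.5% and 1.77 to 28.6% of a library's reads), without correction for gene length, so levels were not compared between genes as copy numbers. Libraries held 7306218 to 23287011 counts at 0 hpf in mutants and 5410065 to 24041447 in wild type.

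At 24 hpf, genotype was tested with edgeR 4.0.16 in R 4.3.3 (TMM, filterByExpr, robust quasi-likelihood F test, two-sided, Benjamini-Hochberg over all genes tested), after the scripts had been tested on simulated data. DESeq2 1.42.0, other size factors, no filter, a replicate block, all stages in one fit, sense-strand counts and left-out libraries were alternatives. Members and lists were chosen with earlier results of these data known. Genes named were the 10 highest in 0 hpf mutants, the 5 at each end of the 3.3 over 0 hpf ratio, the 5 highest in 24 hpf wild type, calls at 24 hpf, genes next to each threshold and up to 4 members per fixed list, and some of these genes are not reported here. Symbols were found for 26433 of 32266 gene IDs and 106 of 107 members. The ChIP-seq peak lists (18) were not used, since gene positions on GRCz10 were not at hand.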

Additional observations from a re-analysis of the deposited data

Results flagged for a closer look

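A library stood apart from the rest of its group in 26 of 228 groups examined (37 named genes and the summed level, in 6 groups each), by the gap to its nearest neighbour relative to the range of the group. Chance marks about 1 in 20 groups, and the values of one library are not independent between genes. Of the 26, 8 were in replicate 3, 5 in replicate 2, 4 in replicate 5 and 3 each in replicates 1, 4 and 6.

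Among mutants at 0 hpf, replicate 2 stood apart for pip5k1ba (28.4 CPM, others 8.86 to 14.6) and KCNQ5 (12.1 CPM, others 1.202 to 5.06). At 3.3 hpf, mutant replicate 2 was again high for KCNQ5 (12.2 CPM, others 2.13 to 6.20), replicate 6 was high for LMO1 (35.0 CPM, others 10.6 to 17.3), CD99L2 (24.8 CPM, others 3.58 to 11.5) and NTN1 (13.3 CPM, others 1.98 to 6.79), and replicate 1 was low for FAT3 (2.81 CPM, others 5.22 to 6.76).

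In mutants at 24 hpf, replicate 3, the library with the fewest counts, was high for abca1b (548 CPM) and pip5k1ba (6.21 CPM) and low for EMX2 (14.98 CPM) and GUCY1A1 (0.731 CPM). Replicate 4 was low for MXD4 (32.4 CPM) and nfil3-5 (20.4 CPM), and replicate 2 for WNT5B (33.2 CPM).

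In wild type at 0 hpf, replicate 5 was high for PAX5 (2.09 CPM, others up to 0.4995) and hoxa13a (2.61 CPM, others up to 0.458), replicate 3 for MXD4 (1.85 CPM), CCND2 (0.370 CPM) and KCNQ5 (1.11 CPM), and replicate 1 for EGFR (0.851 CPM). In wild type at 3.3 hpf, replicate 5 was high for PAX5 (0.721 CPM) and GCNT4 (2.16 CPM), replicate 1 for LMO1 (1.01 CPM) and replicate 4 for WNT5B (1.35 CPM). In wild type at 24 hpf, replicate 2 was low for CD99L2 (127 CPM) and replicate 3 high for FAT3 (5.71 CPM).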

How the results depend on the processing

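The number of members moved with the thresholds of the rule, to 41 with a wild-type ceiling of 0.5 CPM and 35 with a mutant floor of 10 CPM. It was 91 with TMM-scaled CPM, all of them members, and 100 to 120 when each replicate number was left out in turn. Members called higher at 24 hpf numbered 3 (none lower), 2 to 4 when 1 library was left out (lower 0), and 0 with all stages in one fit, where 17 genes in all were higher and 2 lower. Over all genes, DESeq2 called 77 higher and 59 lower and a term for libraries with over 8 percent multimapping reads (chosen after seeing the data) 65 and 39, against 42 and 19. Without the mutant libraries over 50 CPM of ezh2 (also chosen after seeing the data) 22 genes were higher and 8 lower, and 2 members, TBX5 and PAX1. Leaving out 1 library gave 33 to 44 genes higher and 10 to 26 lower, the fewest lower without wild-type replicate 5 (10) and without mutant replicates 1, 4 and 6 (11, 12 and 12). The DESeq2 and multimapping fits called TBX5, PAX1, PRDM8 and crispld1b and not HOXD11. Summed levels moved by less than 1 SD under every alternative run.

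Same-numbered 24 hpf libraries had correlations of 0.771, 0.558, 0.424, -0.021, 0.522 and 0.517. Most were positive, but number 4 was not, and 5 of 12 libraries were most like their own number in the other genotype, so the numbers were not taken as pairs. With the replicate block, 57 genes were higher and 37 lower, and 3 members were higher, with PRDM8 in place of HOXD11 (log2 fold change 0.949), and 0 lower. The planned term for the 2 library kits was not run because the strand columns did not show which libraries they were.

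Depth limits the wild-type side most, since 45 members at 0 hpf and 39 at 3.3 hpf had a count of 0 in at least 1 wild-type library, so early folds of single genes are loose. The 0 and 3.3 hpf comparisons chose the members and carry no test. Levels are shares of a library and were not corrected for gene length.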
